A study of Rattus norvegicus with 8 samples.

Results

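S100 genes outside the neutrophil pair S100a8 and S100a9 were followed in the periodontal ligament (PDL), which holds tooth roots in their bony sockets, of rats (Rattus norvegicus). The set held 7 genes of the 17337 in the count table: S100a1, S100a4, S100a6, S100a10, S100a11, S100a13 and S100a16. They were picked by name because S100a4 was high at the later age, so the difference between ages in the 7 genes is given as a description and was not tested for the set. The groups were untreated rats at postnatal day 28 (P28, 4 animals) and at postnatal day 18 (P18, 4 animals), with 1 RNA library per animal. The study asked how the PDL differs once the teeth meet in occlusion, which happens between these ages. Each library came from the cervical part of the PDL, cut out by laser and amplified with a low-input kit. The libraries are whole captures, and the labels name neither strain nor sex. In such captures a change in the number of cells of a type and a change in RNA per cell cannot be told apart.

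S100 proteins are small calcium-binding proteins built on EF-hands, the helix-loop-helix motif that holds the calcium ion. Most work as dimers. Calcium binding opens a surface that grips target proteins such as annexins, myosins and cytoskeletal regulators, and some S100 proteins are also released and act on cell-surface receptors. In connective tissue S100a4, also called fibroblast-specific protein, is widely used to mark fibroblasts, although macrophages and other leukocytes carry it too.

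Total counts ran from 5252693 to 26645656 per library, and each of the 7 genes had at least 82 counts in every library, so all 7 passed the expression filter in both ages. P28 replicate 4 stood apart and had the lowest depth. Its correlations with the other P28 libraries, across genes of log2 CPM (CPM: counts scaled to a common library total), were 0.750 to 0.766, against 0.780 to 0.835 for all other pairs within an age. Values below are CPM with TMM scaling, which levels the libraries on the bulk of their genes, and 4 values for an age always run from replicate 1 to replicate 4. Levels of different genes are not compared here, since CPM is not corrected for transcript length. The 10 fibroblast markers were all detected, at a summed 143329 to 201766 CPM in P28 libraries and 98445 to 140388 CPM in P18 libraries. These sums, most of them Col1a1, Col3a1 and Postn, did not overlap between ages. By itself 0 of the 10 genes had all P28 libraries above all P18 libraries, where 4.91% of all tested genes did. All 10 had a log2 fold change above 0, with a median of 0.44, against 0.01 for all tested genes. Col1a2 stood at only 11.9 to 44.2 CPM in P28 libraries and 10.8 to 24.6 CPM in P18 libraries. Whether the annotation used for counting sets this low value was not tested. The part of fibroblasts in the levels of the S100 genes was not tested.

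S100a4, which binds non-muscle myosin and is tied to cell motility, stood at 7481, 2545, 10938 and 4817 CPM at P28, against 1947, 1236, 1582 and 1266 CPM at P18. The ages did not overlap, yet the P28 libraries differed among themselves by 4.30-fold and the P18 libraries by only 1.58-fold. The mean was 6445 ± 3611 CPM at P28 and 1508 ± 332 CPM at P18 (SD, n = 4 each), a log2 fold change of 2.10 ± 0.37 (SE). S100a4 alone took 0.268% to 0.970% of all counts in P28 libraries and 0.129% to 0.198% in P18 libraries.

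S100a6, known as calcyclin for its link to the growth cycle, stood at 1643, 1133, 2732 and 1081 CPM at P28, against 413, 328, 374 and 363 CPM at P18. Every P28 library stood far above the tight P18 group. The mean was 1647 ± 766 CPM at P28 and 369.5 ± 35.1 CPM at P18, a log2 fold change of 2.16 ± 0.28. The count of S100a4 divided by that of S100a6, which needs no scaling between libraries, was 4.55, 2.25, 4.00 and 4.46 at P28 and 4.71, 3.77, 4.23 and 3.48 at P18. Apart from P28 replicate 2, the 2 genes thus kept a similar proportion at both ages.

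**Figure D1:**
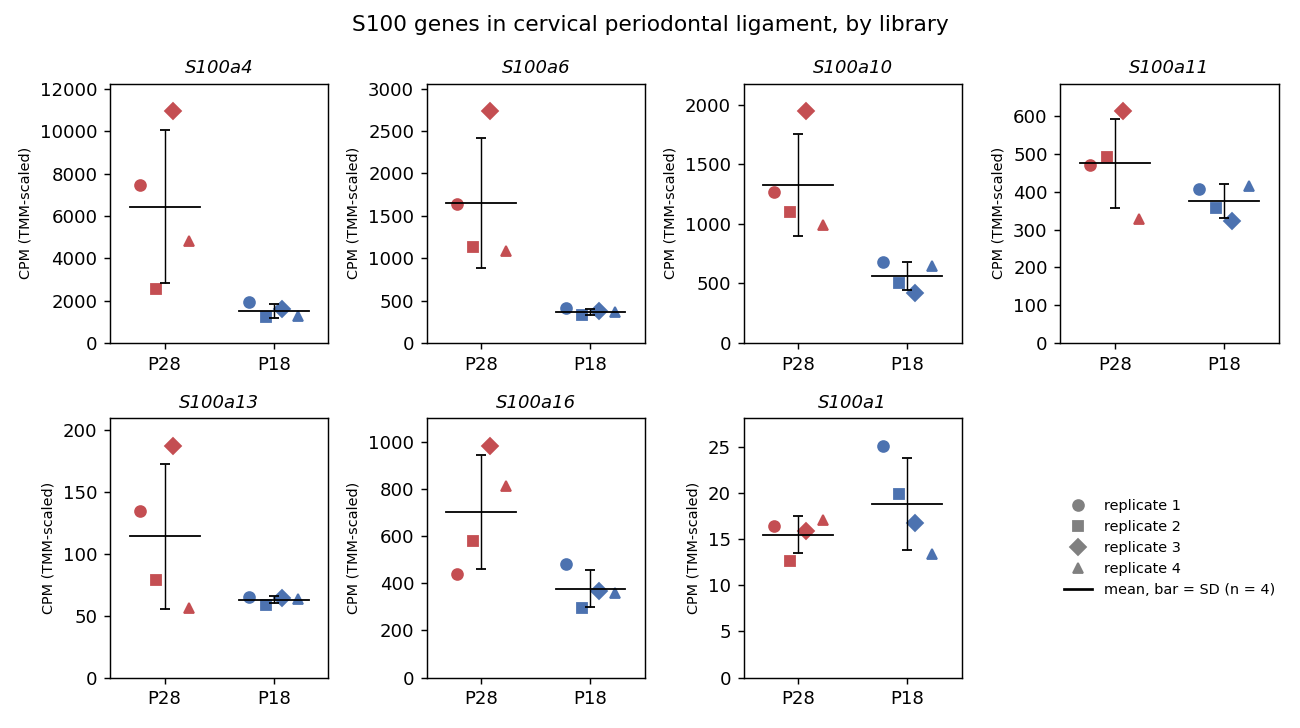
Level of each of the 7 S100 genes in every library (vertical axis, TMM-scaled CPM, starting at 0), with P28 on the left and P18 on the right; marker shape gives the replicate number, the line is the mean and the bar the SD (n = 4 per age). For S100a4, S100a6 and S100a10 every P28 library lies above every P18 library, and P28 replicate 3 is the highest library in 6 of the 7 panels, S100a1 being the exception.

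All 7 genes lie on chromosome 2. RefSeq windows around the gene start were at hand for 5 of the 7 genes, without S100a1 and S100a10 (build GRCr8, 250 bases before the start to 50 after it). The windows of S100a4 and S100a6, the 2 genes with the widest difference between ages, are shown with that of S100a11, whose levels overlapped between ages. Capitals mark matches, on either strand, to the TATA box letters TATAAA, to GGGCGG for the GC box and to CACCC for the CACCC box. The S100a4 window is chr2:178388279-178388578, that of S100a6 is chr2:178398287-178398586 and that of S100a11 is chr2:181874882-181875181, all on the plus strand.
S100a4: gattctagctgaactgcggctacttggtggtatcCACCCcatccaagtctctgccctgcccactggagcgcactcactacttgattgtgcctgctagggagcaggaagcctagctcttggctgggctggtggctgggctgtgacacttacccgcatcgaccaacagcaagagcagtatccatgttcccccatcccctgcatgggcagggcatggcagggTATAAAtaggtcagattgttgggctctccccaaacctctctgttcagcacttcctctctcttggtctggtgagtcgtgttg
S100a6: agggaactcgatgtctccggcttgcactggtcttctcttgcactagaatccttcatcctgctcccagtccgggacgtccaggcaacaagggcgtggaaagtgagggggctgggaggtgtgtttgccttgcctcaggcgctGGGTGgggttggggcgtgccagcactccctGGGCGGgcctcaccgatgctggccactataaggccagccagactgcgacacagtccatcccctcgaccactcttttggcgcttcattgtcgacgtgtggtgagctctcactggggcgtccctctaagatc
S100a11: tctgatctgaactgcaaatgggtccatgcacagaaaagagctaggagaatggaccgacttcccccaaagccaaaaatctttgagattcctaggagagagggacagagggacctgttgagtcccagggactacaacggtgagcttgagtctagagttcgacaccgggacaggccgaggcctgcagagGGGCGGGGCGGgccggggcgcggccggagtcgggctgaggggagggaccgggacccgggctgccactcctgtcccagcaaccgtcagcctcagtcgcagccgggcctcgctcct
S100a4 held a TATAAA that begins 31 bases before the start, a motif found in 14.2% of all 33469 windows of this length. The other 4 windows held none. GGGCGG, the GC box, was present once in S100a6 and S100a13 and as 2 copies sharing 1 base in S100a11, and 33.1% of all windows hold it. CACCC was present in S100a4, S100a6, S100a13 and S100a16 and in 54.9% of all windows. TGANTCA, the letters of the AP-1 site, matched none of the 5 windows and 7.33% of all. Matches of different motifs did not overlap. S100a4 and S100a6 therefore shared CACCC alone among the 4 motifs searched.

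S100a10, the partner of annexin A2 at the cell membrane that differs from its relatives in holding its open shape without calcium, stood at 1270.0, 1101, 1946 and 987 CPM at P28, against 676, 507, 421 and 643 CPM at P18. The ages were again separate. It averaged 1326 ± 429 CPM at P28 and 562 ± 119 CPM at P18, a log2 fold change of 1.24 ± 0.24.

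S100a11, a partner of annexin A1 and annexin A6, stood at 471, 493, 613 and 327 CPM at P28, against 409, 357, 322 and 415 CPM at P18. These ranges overlapped, with P28 replicate 4 next to the lowest P18 library. S100a11 averaged 476 ± 117 CPM at P28 and 376 ± 44.3 CPM at P18, with a log2 fold change of 0.34 ± 0.21. The ratio of S100a10 to S100a11 counts inside a library was 2.70, 2.23, 3.17 and 3.01 at P28 and 1.65, 1.42, 1.31 and 1.55 at P18. The ratio of these closely placed genes was higher in every P28 library than in any P18 library. The RefSeq table lists 1 pseudogene of S100a10, and 5 pseudogenes and 2 further like loci of S100a11. No source used here says how reads shared with such copies were counted, so the values of both genes carry that uncertainty.

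S100a16, which is linked to fat-cell differentiation, stood at 439, 579.9, 981 and 812 CPM at P28, against 483, 296, 369 and 359.8 CPM at P18. Only P28 replicate 1 fell within the P18 range. Its mean was 703 ± 241 CPM at P28 and 377 ± 77.7 CPM at P18, and its log2 fold change 0.90 ± 0.26.

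S100a13, which takes part in the release of growth factors and cytokines that lack a signal peptide, stood at 135, 78.8, 187 and 56.2 CPM at P28, against 64.8, 58.8, 64.7 and 64.0 CPM at P18. The P18 animals were nearly alike, while P28 replicate 4 lay under all of them and the other P28 libraries above. The means were 114 ± 58.8 CPM at P28 and 63.1 ± 2.86 CPM at P18, a log2 fold change of 0.86 ± 0.34.

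S100a1, best known from heart and skeletal muscle, where it acts on calcium handling, stood at 16.4, 12.6, 15.8 and 17.1 CPM at P28, against 25.04, 19.9, 16.7 and 13.4 CPM at P18. The ages overlapped, with 2 P18 libraries above all of P28. It had a mean of 15.5 ± 1.96 CPM at P28 and 18.8 ± 4.95 CPM at P18, and it was the 1 gene of the 7 with a log2 fold change below 0, at -0.28 ± 0.50.

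Over all 10472 tested genes, edgeR's quasi-likelihood test called 0.516% higher and 0.42% lower at P28 (adjusted p under 0.05). Of the 7 S100 genes it called 3 higher (S100a4, S100a6 and S100a10) and 0 lower. Since the level of S100a4 chose the set, this count is printed beside the background and nothing is read from it. DESeq2 called 4, adding S100a16, and voom called 3, where these tools called 5.35% and 2.93% of all tested genes in either direction. The same 3 genes were those without overlap between ages, where 4.91% of all tested genes had every P28 library above every P18 library and 5.54% every P28 library below. The median log2 fold change of the 7 genes was 0.90, against 0.01 for all tested genes. Together they held 1.10%, 0.626%, 1.54% and 0.741% of the counts of P28 replicates 1 to 4, against 0.409%, 0.292%, 0.340% and 0.328% at P18.

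The calls depended on which libraries were kept, and more so for some genes than for others. Without P18 replicate 2 none of the 7 genes was called, in a fit that called 9 genes in all. S100a6 was the single call when P18 replicate 3, P18 replicate 4, P28 replicate 1 or P28 replicate 3 was left out. Without P18 replicate 1 there were 2 calls, and leaving out P28 replicate 2 or 4 kept all 3. In these 8 fits the log2 fold change stayed at 1.71 to 2.36 for S100a4, 1.80 to 2.31 for S100a6 and 0.99 to 1.36 for S100a10.

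**Figure D2:**
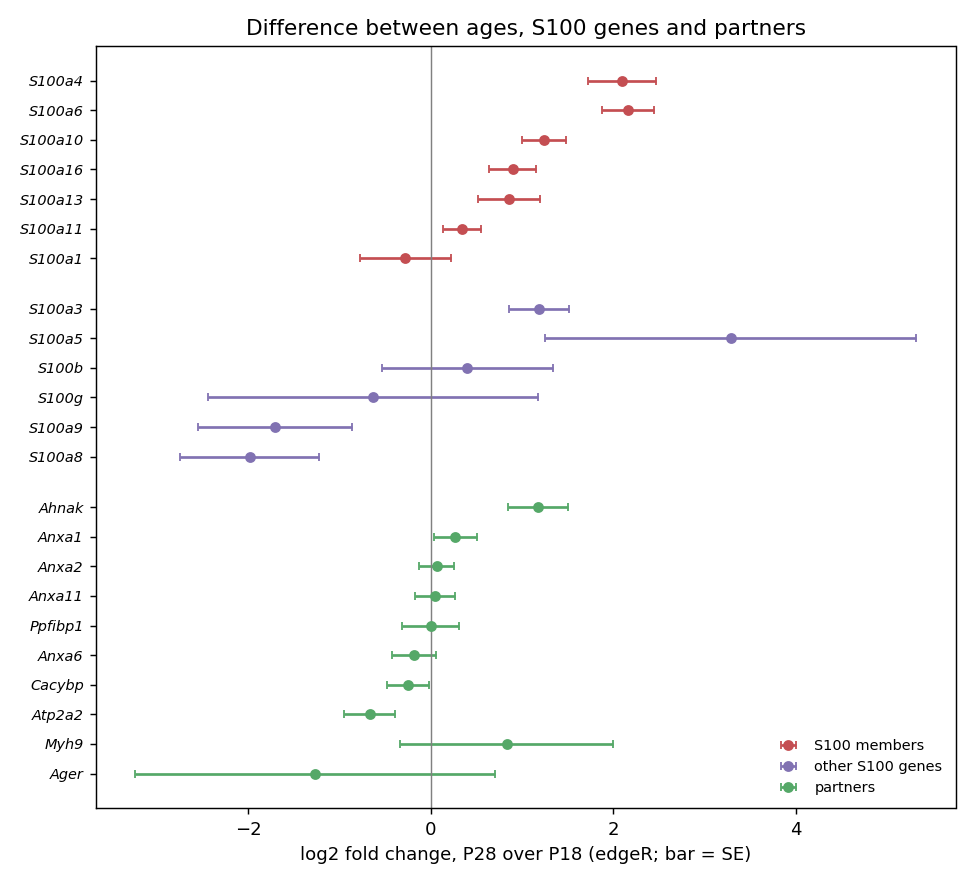
Log2 fold change, P28 over P18, with its SE (horizontal axis) for the 7 S100 genes, 6 other S100 genes and 10 named genes for S100-binding proteins that passed the expression filter. S100a4 and S100a6 lie near 2, the annexin genes lie near 0, and the bars of S100a5, S100g and Ager are the widest.

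Genes for proteins that S100 proteins bind were then compared between ages. Of 25 tested genes of such partners and receptors, edgeR called 0 in either direction, with 10 log2 fold changes above 0 and 15 below and a median of -0.09. At an unadjusted p under 0.05 there were 2 higher and 2 lower, where 14.5% of all tested genes passed in either direction. DESeq2 called 1 gene higher and voom called 1 higher, in both cases Ahnak, where these tools called 2.84% and 1.67% of all tested genes higher.

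Anxa2, which encodes the annexin that S100a10 binds, stood at 752, 937, 803 and 976 CPM at P28, against 616, 826, 834 and 1042 CPM at P18. These values overlapped throughout, with a log2 fold change of 0.06 ± 0.19 (adjusted p by edgeR 0.922), and -0.055 without P18 replicate 1. The count of S100a10 divided by that of Anxa2 was 1.69, 1.17, 2.42 and 1.01 at P28 and 1.10, 0.614, 0.505 and 0.617 at P18. P28 replicate 4 fell below P18 replicate 1, so this ratio overlapped between ages.

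**Figure D3:**
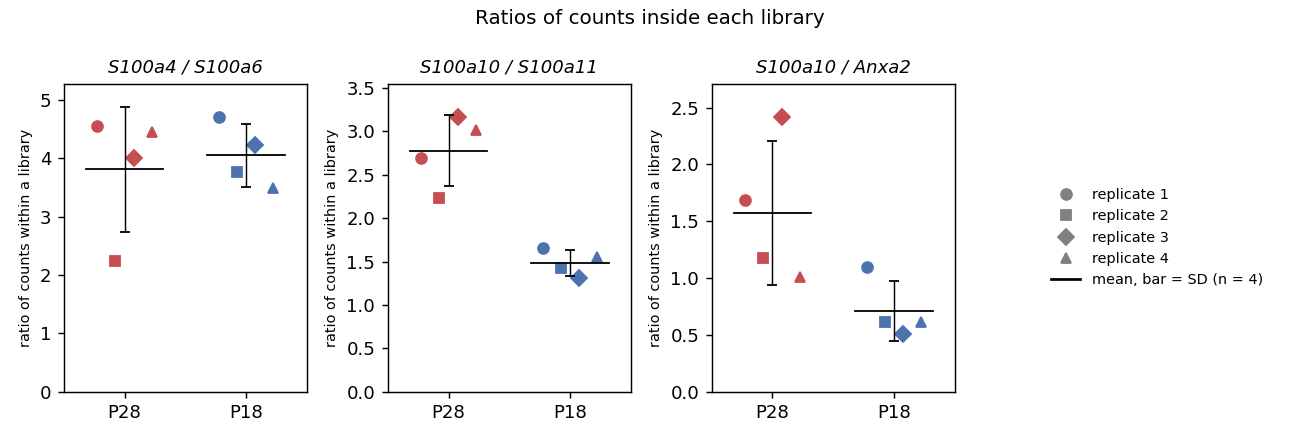
Ratio of the counts of 2 genes inside each library (vertical axis, no unit, starting at 0) for S100a4 over S100a6, S100a10 over S100a11 and S100a10 over Anxa2, with P28 left of P18; line and bar are mean and SD (n = 4 per age). The ratio of S100a10 to S100a11 is 2.23 or more in P28 libraries and 1.65 or less in P18 libraries, whereas the other 2 ratios overlap between ages.

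Ahnak, a giant scaffold protein held at the membrane by the complex of S100a10 and annexin A2, stood at 799, 707, 1062 and 458 CPM at P28, against 551, 331, 194 and 266 CPM at P18. Only P28 replicate 4 lay inside the P18 range. Its log2 fold change of 1.17 ± 0.33 did not pass edgeR's test (adjusted p = 0.114), and over the 15 alternatives the adjusted p ran from 0.00790 with DESeq2 to 0.272 without P28 replicate 3.

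The annexins bound by other members showed small differences. Anxa1 averaged 1162 ± 394 CPM at P28 and 964 ± 156 CPM at P18, Anxa6 averaged 471 ± 164 and 535 ± 89.5 CPM, and Anxa11, which S100a6 binds, 184 ± 35.1 and 177 ± 34.1 CPM, in the same order. Their log2 fold changes, 0.27 ± 0.24, -0.18 ± 0.24 and 0.05 ± 0.22, missed the threshold (adjusted p by edgeR 0.660, 0.786 and 0.947), and that of Anxa11 turned negative in 4 alternatives. Cacybp, the calcyclin-binding protein of S100a6, was at -0.25 ± 0.23 on that scale (adjusted p by edgeR 0.681). A p above the threshold does not show that these levels were equal.

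Of the partners of S100a4, the liprin gene Ppfibp1 had a log2 fold change of -0.0012 ± 0.31, whose sign changed in 4 alternatives. Myh9, the gene of a non-muscle myosin heavy chain, was barely counted, at 2.23 ± 1.24 CPM at P28 and 1.26 ± 0.647 CPM at P18, and whether the annotation used for counting sets this low value was not tested. Myh10, the gene of another such heavy chain, named after its values were seen, stood at 103, 80.4, 80.0 and 61.6 CPM at P28, against 134, 145, 96.0 and 149.7 CPM at P18. The ages overlapped through P28 replicate 1, and the log2 fold change of -0.69 ± 0.24 did not pass the test (adjusted p by edgeR 0.191). Atp2a2, the calcium pump of the endoplasmic reticulum that S100a1 acts on in heart, stood at 152, 113, 110 and 53.7 CPM at P28, against 181, 164, 154 and 184 CPM at P18. All P28 libraries were lower, with a log2 fold change of -0.67 ± 0.28 that did not pass the test (adjusted p by edgeR 0.285).

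Ager, Tlr4, Fgf1 and Il1a, named here as receptors and exported cargo, were sparse, each with 0 counts in some libraries. A count of 0 allows up to 3 counts, or 0.113 to 0.571 CPM depending on the library. This does not hold for the whole list of partners and receptors. Bsg, also on it and named after its values were seen, stood at 982 to 1444 CPM in P28 libraries and 985 to 1198 CPM in P18 libraries. Ager, the receptor for advanced glycation end products that binds several S100 proteins, stood at 0 to 3.58 CPM in P28 libraries and 0 to 10.4 CPM in P18 libraries. Tlr4, a receptor of innate immunity, stood at 3.29, 3.24, 0.408 and 0 CPM at P28 and had 0 counts in all P18 libraries. Fgf1 and Il1a, whose products leave cells together with S100a13, reached at most 1.43 and 0.043 CPM in any library. Tlr4, Fgf1 and Il1a did not pass the expression filter and were not tested.

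Other members of the S100 family did not follow a shared direction. Of 6 other S100 genes tested, edgeR called 0, with 3 log2 fold changes above 0 and 3 below; at an unadjusted p under 0.05 there were 1 higher (S100a3) and 1 lower (S100a8), beside 14.5% of all tested genes in either direction. DESeq2 called 1 higher (S100a3), beside 2.84% of all tested genes, and voom called 0. S100a3, a neighbour of S100a4 whose RefSeq span overlaps that of S100a2, stood at 79.5, 49.5, 86.8 and 114 CPM at P28, against 24.6, 36.6, 35.6 and 47.9 CPM at P18. The ages did not overlap, with a log2 fold change of 1.19 ± 0.32 (adjusted p by edgeR 0.107; 0.0228 to 0.250 over 15 alternatives).

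S100a8 and S100a9, which form calprotectin, the main calcium-binding protein of neutrophil cytoplasm, differed by -1.98 ± 0.76 and -1.71 ± 0.84 on the log2 scale (adjusted p by edgeR 0.246 and 0.383). In P18 replicate 3 S100a9 stood at 18.5 CPM and in P18 replicate 2 at 605 CPM, while S100a4 stood at 1582 and 1236 CPM there. The summed level of the 10 neutrophil markers was 297, 88.4, 222 and 25.2 CPM at P28 and 665, 944, 36.8 and 628 CPM at P18. The part of neutrophils in the levels of the 7 S100 genes was not tested.

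S100b, a Schwann cell and cartilage marker, stood at 141, 22.1, 15.9 and 23.5 CPM at P28, against 2.98, 54.9, 88.3 and 7.28 CPM at P18, with a log2 fold change of 0.40 ± 0.94 that was -0.90 without P28 replicate 1. S100g, the vitamin D-dependent calbindin of gut, had one of -0.63 ± 1.81 and S100a5 one of 3.28 ± 2.03 (edgeR adjusted p for the 3 genes 0.892, 0.915 and 0.504); that of S100g was 0.68 without P18 replicate 1. S100a7a, S100z, S100vp and RGD1562234, the row matched to S100a7l2, had 0 counts in all 8 libraries. A count of 0 allows up to 0.571 CPM in the shallowest library.

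Calcium-binding EF-hand genes outside the S100 family gave a wider frame. Of 28 tested, edgeR called 0, with 13 log2 fold changes above 0 and 15 below and a median of -0.09. At an unadjusted p under 0.05 there were 2 higher and 4 lower, beside the 14.5% of all tested genes in either direction. DESeq2 called 1 higher and 2 lower, where it called 2.84% of all tested genes higher and 2.51% lower, and voom called 1 higher, beside 1.67% of all. The lowest p belonged to Calb1, Ppp3r1 and Rcn1. Calb1, which encodes calbindin, a calcium buffer also made by enamel-forming cells, stood at 1.17, 1.78, 0.408 and 0.208 CPM at P28, against 84.8, 9.26, 50.1 and 0 CPM at P18. Its P18 libraries held both the lowest and the highest value, so every P28 library lay inside their range. The log2 fold change of Calb1 was -5.28 ± 1.52 (adjusted p by edgeR 0.124).

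Ppp3r1, the regulatory subunit of calcineurin, averaged 44.1 ± 17.0 CPM at P28 and 101 ± 37.4 CPM at P18, a log2 fold change of -1.19 ± 0.35 (adjusted p by edgeR 0.130). Rcn1, a calcium-binding protein of the secretory pathway, averaged 359 ± 119 CPM at P28 and 168 ± 80.1 CPM at P18, a log2 fold change of 1.10 ± 0.33 (adjusted p by edgeR 0.140). DESeq2 called all 3 of these, Rcn1 also passed with voom, and Calb1 also without P18 replicate 4. Their adjusted p reached 0.735 for Calb1 with voom and 0.319 for Ppp3r1 and for Rcn1 without P18 replicate 3. Myl6, a myosin light chain made by most cells, and Cetn3 are listed at 0 in all 8 libraries. Such a value can come from the annotation used for counting, which was not tested, and is not read as absence of the RNA.

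By position, S100a1, S100a13, S100a16, S100a4 and S100a6 lie close together on chromosome 2, and S100a11 and S100a10 lie close to each other farther along. Between S100a1 and S100a10 the RefSeq table lists 85 symbols that are not S100 genes, of which 11 were in the count table and 0 passed the expression filter. The members overlapped 0 other listed genes. The 5 nearest tested genes on either side, added after the values were seen, gave 0 calls by edgeR among 10 genes, with 7 log2 fold changes above 0; at an unadjusted p under 0.05 there were 1 higher and 1 lower (14.5% of all tested genes in either direction), and DESeq2 and voom each called 1 higher (2.84% and 1.67% of all). That gene was mrpl9, a mitochondrial ribosomal protein gene, singled out here as the lowest p of the 10. It stood at 119, 151, 144 and 112 CPM at P28, against 52.4, 82.7, 54.4 and 65.9 CPM at P18 (log2 fold change 1.04 ± 0.23, edgeR adjusted p = 0.0603; 0.00364 to 0.197 over 15 alternatives).

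Genes whose profile over the 8 libraries came nearest to that of S100a4 were ranked by the root mean square difference of log2 CPM, each gene centred on its own mean. That mean was taken over both ages, so the ranking itself selects genes with a difference between ages like that of S100a4. The likeness of the values below follows from this selection, and nothing is read from it. Within the set S100a6 was nearest, at 0.32 log2 units, and S100a1 farthest, at 1.20. Outside the set the nearest 6 were Cst3 (0.40), Atp6v0b (0.43), Kcnmb4 (0.45), Slc39a3 (0.48), Ctsz (0.48) and Gngt2 (0.49). Cst3, which encodes the secreted protease inhibitor cystatin C, stood at 4498, 3004, 6072 and 4759 CPM at P28, against 1691, 1409, 1725 and 1408 CPM at P18. Like S100a4, it was highest in P28 replicate 3 and lowest of the P28 libraries in replicate 2. Atp6v0b is a subunit of the proton pump of acidic compartments and Ctsz a lysosomal cathepsin. Ctsz stood at 431, 99.4, 592 and 165 CPM at P28 and 72.8, 104, 69.0 and 109 CPM at P18, overlapping through P28 replicate 2. Atp6v0b, Kcnmb4, Slc39a3 and Gngt2 averaged 259, 90.2, 55.1 and 91.0 CPM at P28, against 109, 29.4, 20.8 and 39.2 CPM at P18. The nearest gene was Lgals3, a galectin, for S100a6 (0.35), Clic1 for S100a11 (0.10), Atp5i for S100a13 (0.18), Klf3 for S100a16 (0.13) and Phf20 for S100a1 (0.08). A gene that varies little has small differences to many others, so these distances are not comparable between members.

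**Figure D4:**
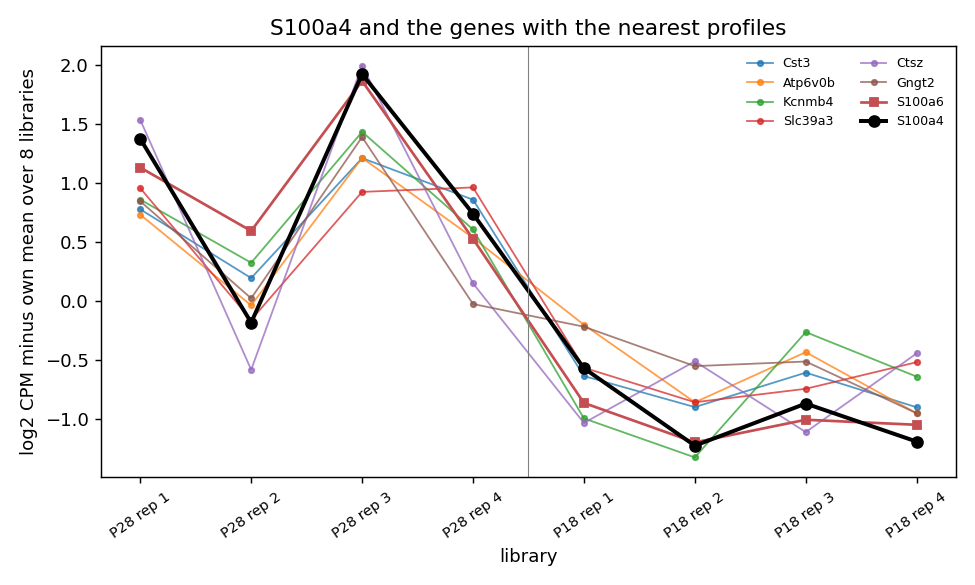
Log2 CPM of S100a4, of S100a6 and of the 6 nearest genes outside the set, each minus its own mean over the 8 libraries (vertical axis, log2 units), by library with P28 left of P18; lines only join the points of a gene. Each gene but Slc39a3 is highest in P28 replicate 3, and S100a4 and S100a6 differ by a root mean square of 0.32. The 6 genes outside the set were selected on these same values.

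Markers of other cell types moved with some of these values. The 9 osteoclast markers, from bone-resorbing cells, summed to 5634, 1118, 7967 and 2121 CPM at P28 and to 1543, 1515, 1557 and 1811 CPM at P18. Replicates 1 and 3 of P28 were thus highest both in this sum and in S100a4, S100a6, S100a10 and S100a13. S100a11, S100a16 and S100a1 went otherwise. Among P28 libraries S100a16 was lowest in replicate 1, S100a1 was highest in replicate 4, and S100a11 was higher in replicate 2 (493 CPM) than in replicate 1 (471 CPM). Ctsk, the largest part of the osteoclast sum, stood at 3552, 859, 4663 and 1793 CPM at P28. At P18 Ctsk stood at 1351, 1371, 1410 and 1571 CPM, so the ages overlapped. Acp5 stood at 1555, 147, 2632 and 235 CPM at P28 and at 57.5 to 131 CPM in P18 libraries. Of the 7 osteoclast markers tested, 6 had a log2 fold change above 0 and 1, Itgb3, below. Itgb3 stood at 6.05, 5.33, 12.4 and 0.416 CPM at P28, against 11.7, 5.62, 23.9 and 28.4 CPM at P18. Calcr had 1 count over all libraries. The 12 macrophage markers summed to 1955, 694, 2453 and 2399.7 CPM at P28 and to 853, 1268, 1384 and 1097 CPM at P18.

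P28 replicate 2 had the lowest sum of all 8 libraries for both lists, though 859 of its 1118 CPM of osteoclast markers were Ctsk. Its Acp5, at 147 CPM, lay above the 57.5 to 131 CPM of P18 libraries. The rank of the sum thus does not hold for each osteoclast gene. In that library S100a4, S100a6 and S100a10 lay above every P18 library, at 2545, 1133 and 1101 CPM. The same library had the highest sum of the 8 epithelial markers, 5774 CPM, while P28 replicates 1, 3 and 4 had 266, 1030.4 and 66.6 CPM and the P18 libraries 604, 172, 240.3 and 32.4 CPM. In P28 replicates 1 and 4, whose epithelial sums lay within the P18 range, S100a4 stood at 7481 and 4817 CPM and S100a6 at 1643 and 1081 CPM. The part of osteoclasts, macrophages and epithelial cells in the levels of the S100 genes was not tested beyond these values.

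**Figure D5:**
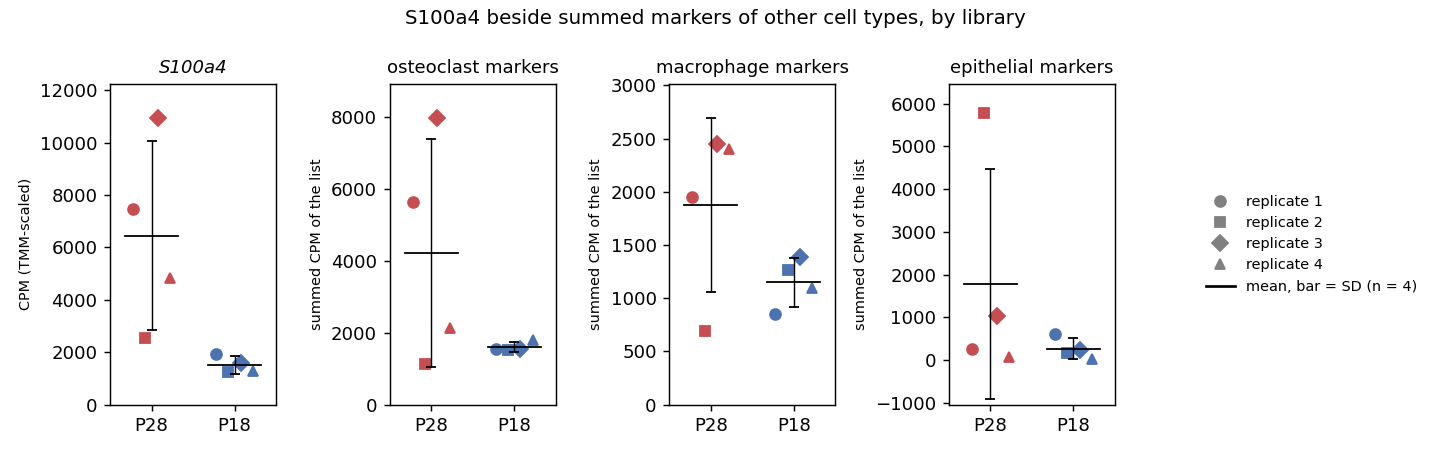
Level of S100a4 (TMM-scaled CPM) beside the summed CPM of 9 osteoclast, 12 macrophage and 8 epithelial markers, by library, with P28 left of P18; marker shape gives the replicate, line and bar the mean and SD (n = 4 per age). P28 replicates 1 and 3 are high in S100a4 and in the osteoclast sum. P28 replicate 2 is the lowest library for the osteoclast sum, most of it Ctsk, and for the macrophage sum. It is the highest for the epithelial sum.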

How the data were processed

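RNA from laser-dissected cervical PDL of 4 rats at P28 and 4 at P18 was sequenced. The authors deposited raw counts per gene symbol; the submitters' processing notes name the build rn6, HTSeq 0.9.1, STAR 2.5.3a and edgeR 3.16.5, and no source used here gives the annotation, the strand setting or the treatment of shared reads. A normalized table and 40 count columns of other samples were not used. Groups came from the age label.

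The counts were fitted over all genes by the quasi-likelihood F test of edgeR 4.0.16 under R 4.3.3 (TMM scaling, age as the only term, expression filter with minimum count 10). A call is a Benjamini-Hochberg adjusted p under 0.05. Each SE was derived from the log2 fold change and its F statistic. A prior count of 2 entered log2 CPM. The fit was tested on simulated counts. Spread between libraries (biological coefficient of variation 0.704, median SE 0.49) limits what 4 libraries against 4 can show; p-values measure the spread between these animals. A floor of 3 counts covers counting error only.

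The members and the 14 gene lists were chosen with earlier results of these data known. Named were all 7 members, other S100 genes that passed the filter, 13 partner genes fixed by name, called genes and the 3 lowest p among EF-hand genes, and the nearest profiles to each member (mean log2 CPM of at least 5; 6 for S100a4, 1 for the others; that of S100a10 is not reported here). Gene names and positions were matched through RefSeq (assembly GRCr8), and S100a14, Ryr1, Tesc, Cetn2, Dcstamp, Ocstamp, Cd79a and Dsp were not analysed here. The alternatives tried were upper-quartile scaling, scaling by DESeq2 size factors, the Wald test of DESeq2 1.42.0, limma 3.58.1 voom with quality weights, no filter, 10 counts in 4 libraries, a replicate block, and each library left out.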

Additional observations from a re-analysis of the deposited data

Results flagged for a closer look

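In 7 of 72 groups of 4 libraries examined, 1 library lay far from the other 3. The cut-off used marks about 1 group in 20 by chance if values are normally distributed. CPM values and marker sums need not be, and some groups share genes, so nothing is read from the count of 7. S100a13 was lowest in P18 replicate 2, at 58.8 CPM, with the other P18 libraries at 64.0 to 64.8 CPM. S100a5 had 0.967 CPM in P18 replicate 4 and 0 in the other P18 libraries, so the zeros alone set its mark. S100b stood at 141 CPM in P28 replicate 1, against 15.9 to 23.5 CPM in the other P28 libraries, and S100g at 30.8 CPM in P28 replicate 3, against 0 to 1.53 CPM. The summed osteoclast markers of P18 replicate 4, at 1811 CPM, stood above the other P18 libraries at 1515 to 1557 CPM. P28 replicate 2 stood apart in the summed epithelial markers, at 5774 CPM with the other P28 libraries at 66.6 to 1030.4 CPM, and in the summed endothelial markers, at 1267 CPM with the others at 699 to 764 CPM.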

How the results depend on the processing

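The log2 fold changes of the 7 S100 genes changed sign in none of 105 values (7 genes under 15 alternatives). All moved by less than 1 SD between replicates. Leaving out 1 of 4 libraries can hardly move a mean by that much, so nothing is read from this bound. That of S100a13 ran from 0.51 to 1.08 when 1 library was left out. Their calls moved more. Of the 7 alternatives that kept all libraries, S100a4 and S100a6 were called in 7 and S100a10 in 6, lost with the replicate block; DESeq2 added S100a16. Leaving out 1 library, 0 to 3 S100 genes were called higher and 0 lower. Over all genes, leaving out 1 library gave 4 to 110 called higher and 5 to 105 lower, against 54 and 44 with all libraries; DESeq2 gave 297 and 263, voom 175 and 132. The replicate numbers run in sample order within each age. Deviations of same-numbered libraries correlated at -0.02 to 0.002, and 0 of 8 libraries matched its own number best. The fit with the replicate number as a block called 16 higher and 10 lower. These values concern this numbering alone, and a pairing or batch of another kind was not tested.

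Where edgeR called 0, DESeq2 called 1 other S100 gene, 1 partner and 1 EF-hand gene higher and 2 EF-hand genes lower, and voom 1 partner and 1 EF-hand gene higher; leaving out 1 library gave 0 for the first and second lists in both directions and 0 to 1 EF-hand genes lower. Fold changes near 0 or of sparse genes changed sign. With voom Anxa11 gave -0.041, Ppfibp1 0.16 and Ager 1.89. Leaving out 1 library gave S100b -0.90 (without P28 replicate 1) to 1.21, S100g -4.49 to 0.68 (without P18 replicate 1), Anxa2 -0.055 (without P18 replicate 1) to 0.19, Anxa11 -0.065 (without P18 replicate 1) to 0.16, Ppfibp1 -0.22 to 0.23 (without P28 replicate 4) and Ager -2.24 to 0.23 (without P18 replicate 1). The cause was not tested. No cluster neighbour passed the filter, so the main fit gave no value for them. Their values in the alternatives, among them the fit with no filter, are not reported here. Depth limits Ager, Tlr4 and other sparse genes, for which a count of 0 in the shallowest library allows 0.571 CPM.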

Other observations

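The 8 osteoblast markers summed to 8967, 9223, 5815 and 10358 CPM at P28 and to 4471, 5928, 4054 and 3872 CPM at P18, the ranges overlapping, and 1 of them, Bglap (osteocalcin), was called higher by edgeR and 0 lower. EdgeR called 0.516% of all tested genes higher. At an unadjusted p under 0.05 there were 4 osteoblast markers higher, beside 14.5% of all tested genes in either direction. DESeq2 and voom called 3 higher each, beside 2.84% and 1.67% of all. In 3 of the 8 genes all P28 libraries lay above all P18 libraries, beside 4.91% of all tested genes. Of these, Ibsp was separate only narrowly, at 2725.6 CPM or more against 2714.8 CPM or less. The 8 endothelial markers summed to 699 to 1267 CPM in P28 libraries and 664 to 988 CPM in P18 libraries, and the 10 mural cell markers to 739 to 1478 and 934 to 1402 CPM. The 7 Schwann cell markers summed to 41.2 to 177 CPM in P28 libraries and 12.7 to 174 CPM in P18 libraries, and the 8 lymphocyte markers to 26.4 to 79.1 and 30.7 to 153 CPM. Of the 7 osteoclast markers tested edgeR called 1 higher, Acp5; at an unadjusted p under 0.05 there were 4 higher, DESeq2 called 2 and voom 0. Of the fibroblast, macrophage, neutrophil, lymphocyte, epithelial, endothelial, Schwann and mural lists edgeR called 0. At an unadjusted p under 0.05, which 14.5% of all tested genes passed in either direction, these 8 lists held 3, 5, 0, 0, 3, 1, 0 and 1 higher and 0, 0, 2, 1, 0, 0, 0 and 2 lower, out of 10, 12, 8, 4, 7, 8, 6 and 9 tested. DESeq2, which called 2.84% of all tested genes higher and 2.51% lower, called 3, 1, 0, 0, 0, 1, 0 and 1 higher and 0, 0, 1, 1, 0, 0, 0 and 1 lower. Voom, with 1.67% of all called higher, called 2 fibroblast, 1 endothelial and 1 mural marker higher and 0 lower.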
